A study of Rattus norvegicus with 40 samples.

Results

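Amino acids cross the membranes of the cell and of the lysosome through carrier proteins of the Slc gene families, and this account follows the genes of 6 of those families, Slc1, Slc3, Slc7, Slc36, Slc38 and Slc43, through rat liver. Genes were taken whose array row carried 1 gene symbol matching Slc1a, Slc3a, Slc7a, Slc36a, Slc38a or Slc43a followed by a number. The rule gave 39 genes with 1 row each, of 14497 genes so named on the array. Among them, Slc7a6os matches by its name alone: it lies beside Slc7a6, is named as its opposite strand and is no transporter, so it is given apart from the other 38.

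Livers of Sprague Dawley rats came from 3 models of liver growth, each with rapamycin, an inhibitor of the kinase mTOR, or with its solvent dimethyl sulfoxide (DMSO). Partially hepatectomised adults were injected 1 h before the surgery, with 250 µg of rapamycin per 100 g of rat or with DMSO, and the remaining liver was taken 24 h after it. Refed adults were fasted for 48 h, injected with the same dose or with DMSO, and from 1 h later given food again for 3 h. Fetuses were injected with 50 µg of rapamycin or with DMSO on day 19 of gestation, and the liver was taken 24 h later. RNA was prepared from each liver both from polysomes, the mRNAs that carry several ribosomes, and from whole tissue (total RNA). This gave 12 groups on 40 arrays, with n = 3 livers per group in adults and n = 4 in fetuses, 20 livers in all. No group holds an untreated, fasted or unoperated adult liver, so a difference between models mixes age, surgery and feeding. The preparations were pooled polysome fractions, and what was pooled is not given, so a replicate number is read here as a liver. For the 3 hepatectomy polysome DMSO arrays the labels disagree: the time point names refeeding, the title and injection field hepatectomy, and the title was followed.

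Carriers of the Slc1 and Slc38 families use the sodium gradient to draw glutamate, glutamine and small neutral amino acids into the cell, whereas Slc36 carriers use protons. Most Slc7 proteins are light chains that exchange amino acids across the plasma membrane only when bound to a heavy chain of the Slc3 family, and the others carry arginine and lysine. In liver these carriers feed urea, glucose and protein synthesis, and several of them supply or sense the amino acids that activate the mTOR complex 1 at the lysosome. When amino acids run short, the transcription factor Atf4 raises the mRNA of several carriers through a promoter element named CARE (the CCAAT enhancer binding protein-ATF response element).

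Values are log2 intensities of the authors' normalised arrays, on which 1 unit is a doubling. An array was taken to show a gene above background where its value passed the 95th percentile of 201 olfactory and vomeronasal receptor rows on that array, which lay between 5.95 and 6.62. All 9 hepatocyte markers were above background in every group of arrays compared below, with summed linear intensities of 127929 to 138365 in the DMSO total RNA. Probes differ in brightness, so levels are set side by side only for 1 gene across groups, never between genes. The normalisation equalises the arrays, so it hides any change that all mRNAs of a fraction share. In whole liver, fewer cells of a type and less RNA per cell cannot be told apart.

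Of the 38 transporter genes, 23 were above background in every array of all 12 groups, as were 65.6% of all array rows with a gene symbol. They were Slc1a4 and Slc1a5, the exchangers ASCT1 and ASCT2, the proton-coupled Slc36a1 and Slc36a4, the sodium-coupled Slc38a2, Slc38a3, Slc38a4, Slc38a6, Slc38a7 and Slc38a9, the heavy chain Slc3a2 (CD98), the facilitators Slc43a1 and Slc43a2 with their relative Slc43a3, and 9 Slc7 genes (Slc7a1, Slc7a2, Slc7a4, Slc7a5, Slc7a6, Slc7a7, Slc7a8, Slc7a10 and Slc7a15). Some of the 23 lay near the floor: Slc1a5 in all adult groups, and Slc7a10 and Slc7a15 in most groups, did not pass the 99th percentile of the receptor rows on every array. Another 5 genes were above background on every array of no group, namely Slc1a6, a glutamate carrier known from the cerebellum, the kidney heavy chain Slc3a1, the cationic carrier Slc7a3, Slc7a12 and Slc7a13. The remaining 10 were above background in every array of some groups only. Slc7a11, the cystine carrier xCT, and Slc38a5, a system N glutamine carrier, were so in the 4 fetal groups and in no adult one. Slc1a2, the glutamate carrier GLT-1 known from the hepatocytes around the central vein, was so in all 8 adult groups and in no fetal one. Slc36a2 and Slc38a1 were above background in every array of 8 and 9 groups, Slc1a3 in 11, Slc1a7 in 9, Slc1a1 in 7, Slc7a9 in 3 and Slc36a3 in 2.

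After a filter on mean intensity, 28 of the 38 transporter genes were tested, among 10860 transcript clusters in all. The 10 that fell below the filter were Slc1a1, Slc1a6, Slc1a7, Slc36a3, Slc3a1, Slc7a3, Slc7a9, Slc7a11, Slc7a12 and Slc7a13. The distance between the highest and the lowest of the 12 group means had a median of 1.43 over the 28 tested genes and of 1.01 over all tested clusters. It was over 2 in 7 of the 28 genes (25%) and in 12.8% of all tested clusters. These 7 were Slc1a5 at 2.93, Slc7a5 at 2.66 and Slc1a4 at 2.22, and Slc36a2, Slc38a5, Slc1a2 and Slc38a1, whose lowest group was not above background on every array, so that the low end of their range was not measured. At the other end, Slc38a6, Slc38a7, Slc7a4, Slc7a10 and Slc7a15 spanned 0.39 to 0.45 over the 12 groups.

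**Figure D1:**
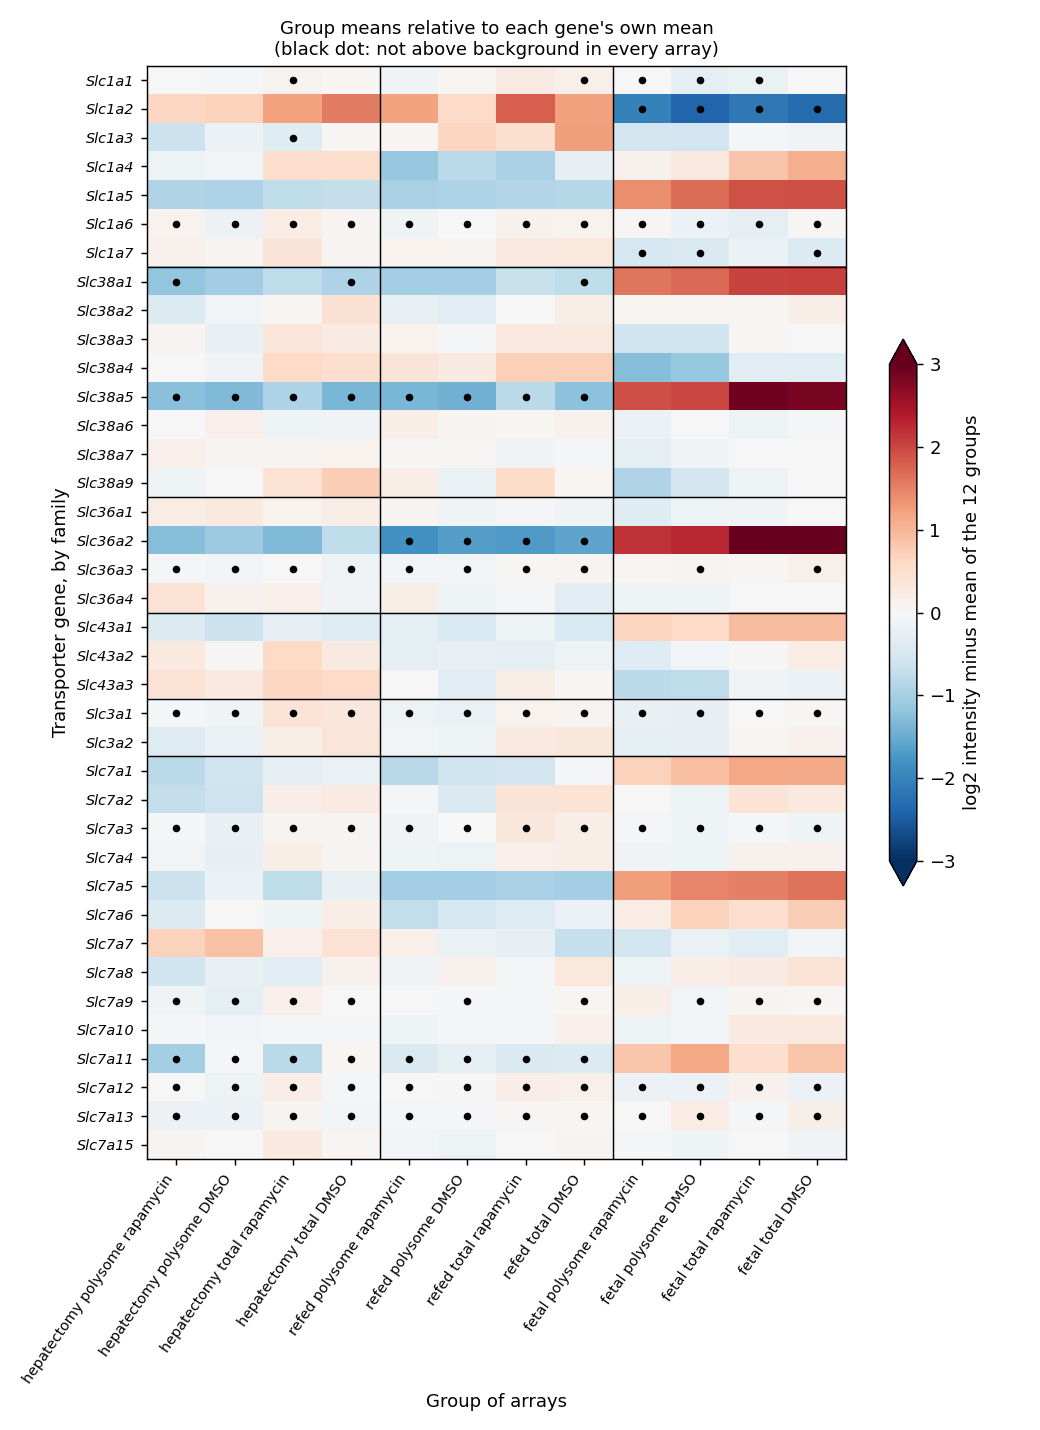
Mean log2 intensity of each transporter gene in the 12 groups, minus the gene's own mean over the groups (colour), with the groups across and the genes by family down; a black dot marks a group not above background on every array. The fetal columns are high for Slc36a2, Slc38a5, Slc38a1, Slc1a5 and Slc7a5 and low, with dots, for Slc1a2.

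The DMSO total RNA of the 3 models was compared first, a set of 3 comparisons in which each group of arrays serves 2 comparisons, so that their values are not independent. The widest differences among the carriers lay between adult and fetal liver. Slc36a2, Slc38a5, Slc38a1, Slc1a5 and Slc7a5, carriers of glycine and proline, of glutamine and of leucine, were lower in hepatectomised and in refed adult liver than in fetal liver, by 3.64-fold to at least 25.3-fold. Slc1a2 was higher in both adult models, with every adult array and 1 of 4 fetal ones above background. In hepatectomised against fetal liver 4 of the 28 genes were higher and 9 lower at an adjusted p under 0.05, where 36.9% of all tested clusters differed, 1847 higher and 2160 lower. In refed against fetal liver 4 were higher and 10 lower, where 47.1% of all tested clusters differed, 2060 higher and 3054 lower. These counts include Slc36a2, Slc38a5 and Slc38a1, which passed the filter through their fetal arrays, and Slc1a2, which passed it through its adult arrays.

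Slc36a2 (transcript cluster 10742766), a proton-coupled carrier of glycine and proline, had log2 intensities of 6.93, 7.05 and 7.11 in hepatectomised livers, 5.96, 6.39 and 6.24 in refed livers, and 11.37, 11.26, 11.01 and 10.89 in fetal livers. The fetal arrays lay apart from all adult arrays, and the refed arrays were not above background. The log2 difference was -4.10 ± 0.18 (SE) in hepatectomised against fetal liver, which is 17.2-fold lower (limma, adjusted p = 9.98e-19). In refed liver it was at least 25.3-fold lower, a bound set by the dimmest signal that counts as above background (adjusted p = 5.18e-21).

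Slc38a5 (10936959) read 5.45, 5.32 and 5.42 in hepatectomised livers, 5.31, 5.73 and 5.57 in refed livers, and 10.20, 10.03, 9.18 and 9.08 in fetal livers. No adult array was above background and every fetal one was, so the gene was at least 10.2-fold lower in hepatectomised (adjusted p = 2.26e-14) and at least 8.88-fold lower in refed liver (adjusted p = 3.64e-14). Slc38a1 (10906592), a system A carrier that takes up glutamine and alanine, read 6.59, 6.26 and 6.66 in hepatectomised livers, 6.73, 6.39 and 6.83 in refed livers, and 9.61, 9.83, 9.41 and 9.02 in fetal livers. In each adult group 2 of its 3 arrays were above background, and all adult arrays lay below all fetal ones. Slc38a1 was lower in hepatectomised (adjusted p = 1.68e-14) and in refed liver (adjusted p = 4.07e-14), and with adult arrays at the edge of background no exact fold is given.

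The exchanger Slc1a5 (10704505), known for glutamine uptake in dividing cells, read 6.85, 6.94 and 7.05 in hepatectomised livers, 6.65, 6.84 and 7.00 in refed livers, and 10.12, 9.82, 9.64 and 8.87 in fetal livers. Both adult groups lay just above background and below every fetal array. Slc1a5 was 6.35-fold lower in hepatectomised (adjusted p = 2.15e-09) and 6.88-fold lower in refed liver (adjusted p = 5.7e-10). The light chain Slc7a5 (10811531), the leucine carrier LAT1, read 10.05, 10.14 and 10.60 in hepatectomised livers, 9.74, 9.74 and 8.92 in refed livers, and 12.41, 12.44, 11.83 and 11.81 in fetal livers. The groups did not overlap, with fetal livers highest, and Slc7a5 was 3.64-fold lower in hepatectomised (log2 -1.86 ± 0.29, adjusted p = 3.6e-06) and 6.32-fold lower in refed liver (log2 -2.66 ± 0.29, adjusted p = 2.98e-09). Its heavy chain Slc3a2 showed no such step: it averaged 12.56 in hepatectomised, 12.55 in refed and 12.32 in fetal livers and passed the threshold in none of the 3 comparisons.

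Other carriers were lower in adult liver by smaller steps. Slc43a1, the leucine facilitator LAT3, differed by -1.30 ± 0.30 in hepatectomised (adjusted p = 0.000685) and by -1.39 ± 0.30 in refed against fetal liver (adjusted p = 0.000244). Slc7a1, the widely expressed arginine and lysine carrier, differed by -1.35 ± 0.39 (adjusted p = 0.00644) and by -1.17 ± 0.39 (adjusted p = 0.0139), but its refed arrays at 7.49, 7.90 and 10.07 overlapped the fetal ones at 10.12, 9.94, 9.30 and 9.27, and the refed call was lost without the first (adjusted p = 0.192) or the second refed liver (adjusted p = 0.097). The light chain Slc7a6 differed by -0.92 ± 0.21 in refed against fetal liver (adjusted p = 0.000659). In hepatectomised liver it differed by -0.54 ± 0.21 (adjusted p = 0.0461). That call was lost with no filter, with only the arrays of the compared groups in the fit, and after cyclic loess scaling of the arrays (adjusted p = 0.179). It was kept in 2 of 7 fits that left out 1 array.

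Slc1a4, the alanine, serine and cysteine exchanger, passed in refed against fetal liver alone, at -1.33 ± 0.37 (adjusted p = 0.00341). Its refed arrays of 8.52, 8.11 and 10.09 overlapped the fetal arrays of 10.71, 10.45, 9.85 and 9.96, and without the second refed liver the adjusted p was 0.0525. Slc7a7, the light chain y+LAT1, differed by -0.61 ± 0.22 in refed against fetal liver (adjusted p = 0.0255, lost without the first refed liver), and Slc7a10 by -0.34 ± 0.12 in hepatectomised against fetal liver (adjusted p = 0.021, kept in 5 of 7 such fits). Both calls were lost after cyclic loess scaling, with an adjusted p of 0.0877 for Slc7a7 and 0.124 for Slc7a10.

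The promoters of 5 carriers that were lower in adult liver, Slc1a4, Slc38a1, Slc7a1, Slc7a5 and Slc43a1, held 1 or both of 2 motifs, which were searched on both strands: TGATGNAA, the CARE, and the E-box CACGTG. Those of Slc36a2, Slc38a5, Slc7a6, Slc7a7 and Slc7a10, also lower in adult liver, held neither. A 300-base window around an annotated start of the gene (250 bases before, 50 after) was available for 30 of the 38 genes. TGATGNAA lay in the windows of 3 of these genes, Slc1a4, Slc38a1 and Slc7a1, and in 3.98% of 33469 rat windows. CACGTG lay in those of 7 genes, Slc1a4, Slc1a6, Slc1a7, Slc36a1, Slc38a7, Slc43a1 and Slc7a5, and in 6.42% of all windows. Both percentages count windows, not genes. Slc36a1 and Slc38a7 passed the threshold in neither comparison with fetal liver, and a link between motif and level was not tested. The 250 bases before the start are shown for the 3 carriers with the CARE and, as an example with the E-box alone, for Slc7a5, from RefSeq on the GRCr8 build, 5′ to 3′ on the strand of the gene, with each motif match in capitals. For Slc38a1 and Slc1a4 the start used lies inside the annotated span of the gene, so the bases shown overlap it. In Slc1a4 the CARE match is on the reverse strand and begins 235 bases before the start, ahead of an E-box. In Slc38a1 and Slc7a1 the CARE match begins 142 and 30 bases before the start, and in Slc7a5 the E-box begins 179 bases before it. A match is a run of letters and no evidence of binding.
Slc38a1, chr7:129681402-129681651, minus strand: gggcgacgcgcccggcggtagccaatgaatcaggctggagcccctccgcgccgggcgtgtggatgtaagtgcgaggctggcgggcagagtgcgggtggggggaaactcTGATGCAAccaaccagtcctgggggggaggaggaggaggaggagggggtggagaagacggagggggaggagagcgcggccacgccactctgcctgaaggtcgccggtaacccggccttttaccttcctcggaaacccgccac
Slc1a4, chr14:98761563-98761812, minus strand: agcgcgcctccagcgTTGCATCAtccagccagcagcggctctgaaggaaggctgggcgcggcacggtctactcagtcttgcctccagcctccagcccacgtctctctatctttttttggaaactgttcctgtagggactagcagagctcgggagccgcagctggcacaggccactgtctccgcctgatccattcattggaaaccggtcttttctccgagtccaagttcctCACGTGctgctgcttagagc
Slc7a1, chr12:11664238-11664487, plus strand: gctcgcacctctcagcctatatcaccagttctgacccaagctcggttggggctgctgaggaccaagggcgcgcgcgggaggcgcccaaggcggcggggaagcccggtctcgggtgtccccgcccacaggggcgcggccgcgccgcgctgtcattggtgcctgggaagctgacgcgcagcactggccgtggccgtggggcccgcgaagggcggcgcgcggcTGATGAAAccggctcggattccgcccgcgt
Slc7a5, chr19:66872413-66872662, minus strand: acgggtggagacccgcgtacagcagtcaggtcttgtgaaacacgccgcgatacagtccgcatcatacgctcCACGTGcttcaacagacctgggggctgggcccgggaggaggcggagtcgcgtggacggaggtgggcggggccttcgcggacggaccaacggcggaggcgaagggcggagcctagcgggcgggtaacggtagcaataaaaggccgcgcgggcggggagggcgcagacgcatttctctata

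Carriers whose genes lie side by side had unlike patterns. No protein-coding gene lies between Slc38a1, Slc38a2 and Slc38a4 in the RefSeq annotation. Slc38a1 was lower in both adult models, Slc38a4 was higher in both, and the system A carrier Slc38a2 between them differed by 0.27 ± 0.34 in hepatectomised and by -0.03 ± 0.34 in refed against fetal liver (adjusted p = 0.574 and 0.956). Likewise Slc36a2 lies next to Slc36a1, a lysosomal carrier, and next to Slc36a3. Slc36a1 averaged 10.02 in hepatectomised, 9.72 in refed and 9.82 in fetal livers.

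Slc1a2 (10838130) led the carriers that were higher in adult liver. It read 10.51, 9.25 and 9.91 in hepatectomised livers, 10.07, 9.80 and 8.83 in refed livers, and 5.88, 5.67, 6.16 and 6.37 in fetal livers, of which 1 was above background. All adult arrays lay above all fetal ones, in hepatectomised (adjusted p = 3.93e-12) and in refed liver (adjusted p = 1.97e-11), and the fetal level was not measured well enough for an exact fold.

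Slc38a4 (10906626), the liver system A carrier, read 13.13, 12.99 and 13.10 in hepatectomised livers, 13.36, 13.30 and 13.22 in refed livers, and 11.69, 11.73, 12.75 and 12.79 in fetal livers. It was 2.07-fold higher in refed liver (log2 1.05 ± 0.32, adjusted p = 0.00693). In hepatectomised liver it differed by 0.84 ± 0.32 (adjusted p = 0.0382). That call was lost with only the arrays of the compared groups in the fit and kept in 2 of 7 fits that left out 1 array. Slc43a3, a carrier of purine bases rather than of amino acids, was higher in hepatectomised liver by 0.77 ± 0.25 (adjusted p = 0.0162, kept in 4 of 7 such fits). Slc38a9, the lysosomal arginine sensor of mTOR complex 1, was higher there by 0.74 ± 0.18 (adjusted p = 0.00118). In refed liver the glutamate carrier Slc1a3 was 2.57-fold higher (log2 1.36 ± 0.28, adjusted p = 0.000141), and Slc38a3, the hepatocyte system N carrier of glutamine, was higher by 0.29 ± 0.10 (adjusted p = 0.0137, and 0.0508 without the first refed liver).

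**Figure D2:**
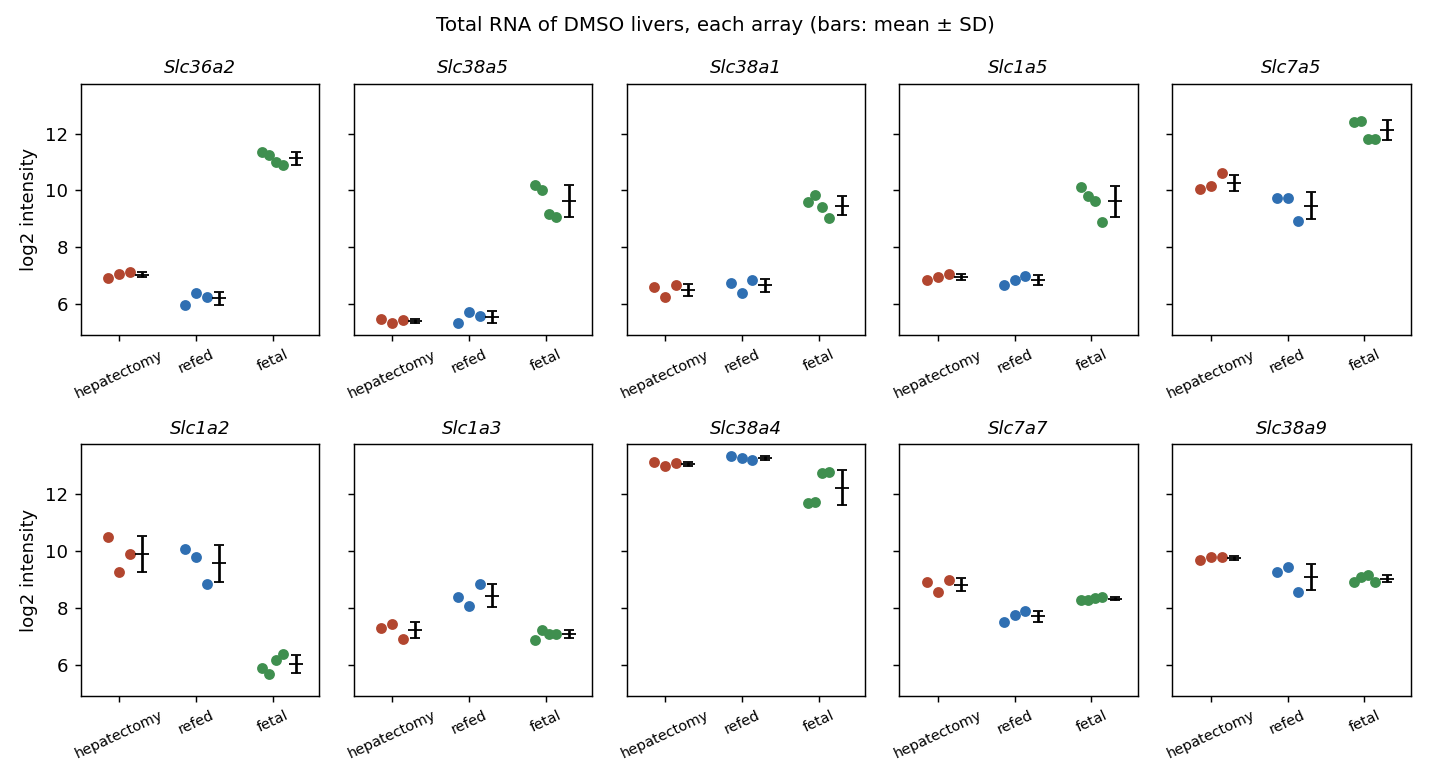
Log2 intensity in each DMSO total RNA array for the carriers that differed between models, with 1 point per liver and bars of the mean ± SD (n = 3, 3 and 4), in hepatectomised, refed and fetal livers. The fetal points stand above all adult points for Slc36a2, Slc38a5, Slc38a1, Slc1a5 and Slc7a5, and below them for Slc1a2.

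Markers of blood-forming cells moved with these differences, and their part in them was not tested. Fetal liver makes blood: all 9 measured erythroid markers were above background in fetal livers and lower in both adult models, by medians of -4.52 in hepatectomised and -4.72 in refed liver. Their summed linear intensity was 3404 to 4116 in hepatectomised, 4316 to 5688 in refed and 42630 to 69200 in fetal livers. In adult livers Rhag was not above background in hepatectomised livers, nor were Ahsp, Rhag and Gata1 in refed livers. All 7 granulocyte and mast cell markers tested were lower in both adult models too, with sums of 610 to 660, 533 to 709 and 20596 to 23149 in hepatectomised, refed and fetal livers, and so were all 5 fetal hepatocyte markers, with sums of 1608 to 2319, 1997 to 2702 and 49581 to 71320.

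Within the fetal group livers 1 and 2 stood apart from livers 3 and 4 in several carriers. Slc38a5 read 10.20 and 10.03 in livers 1 and 2 and 9.18 and 9.08 in livers 3 and 4, while Slc38a4 read 11.69 and 11.73 in livers 1 and 2 and 12.75 and 12.79 in livers 3 and 4. In the same DMSO total arrays Slc7a5, Slc7a1 and Slc43a1 were likewise higher in livers 1 and 2, and the polysome arrays of the same DMSO livers gave Slc38a4 at 10.87, 10.81, 12.22 and 11.85. The erythroid sum of livers 1 to 4 was 69200, 68170, 42742 and 42630, the cell division sum 10608, 10804, 5488 and 5914, and the hepatocyte sum 127929, 131237, 129926 and 132683. Tat, a tyrosine-degrading enzyme that hepatocytes acquire around birth, read 5.87, 6.39, 9.30 and 9.34. With rapamycin total Slc38a4 read 11.82 and 11.96 in livers 1 and 2 and 12.61 and 12.58 in livers 3 and 4, whereas Slc38a5 read 9.57, 10.03, 9.65 and 9.52 in livers 1 to 4, with no such split. The part of these differences between fetal livers in the comparisons above was not tested.

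Between the adult models the carriers differed less. In hepatectomised against refed liver 3 of the 28 genes were higher and 1 lower, where 12.4% of all tested clusters were higher and 5.03% lower. With only the arrays of the compared groups in the fit, 527 clusters were higher and 93 lower, against 1352 and 546 as fitted. Of all calls 71.2% were higher as deposited and 59.8% after cyclic loess scaling of the arrays. Slc7a7 (10783537), which exports arginine and lysine from the cell together with Slc3a2, read 8.91, 8.56 and 8.99 in hepatectomised livers and 7.50, 7.75 and 7.88 in refed livers. The groups did not overlap, and Slc7a7 was 2.16-fold higher (log2 1.11 ± 0.24, adjusted p = 0.0011). Slc1a3 (10821824) read 7.30, 7.44 and 6.92 in hepatectomised livers and 8.38, 8.06 and 8.85 in refed livers, which is 2.31-fold lower with no overlap (log2 -1.21 ± 0.30, adjusted p = 0.0042).

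Slc36a2 was higher in hepatectomised than in refed liver (adjusted p = 0.0025), and with refed arrays not above background no fold is given. Slc38a9 (10813029) read 9.69, 9.79 and 9.79 in hepatectomised livers and 9.27, 9.45 and 8.56 in refed livers, a difference of 0.67 ± 0.19 (adjusted p = 0.0129) that had an adjusted p of 0.171 without the third refed liver. That call was also lost with only the arrays of the compared groups in the fit. Slc7a5 lay above every refed array but missed the threshold (log2 0.80 ± 0.31, adjusted p = 0.0719). Cell division markers moved with the same comparison: their summed intensity was 8096 to 12431 in hepatectomised and 385 to 440 in refed livers, where none of the 6 was above background, and their part was not tested.

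The third refed DMSO liver differed from the other 2 in several carriers, of which Slc38a2 and Slc7a1 are known to be induced by amino acid shortage. Total Slc38a2 read 11.19, 10.97 and 12.29 in refed livers 1 to 3, Slc7a1 read 7.49, 7.90 and 10.07, Slc1a4 read 8.52, 8.11 and 10.09, and Slc43a1 read 10.17, 10.54 and 11.58. The polysome arrays of the same livers gave 10.37, 10.70 and 11.83 for Slc38a2, 7.46, 7.36 and 8.92 for Slc7a1 and 7.76, 8.04 and 9.25 for Slc1a4. Slc7a5 ran the other way, at 9.74, 9.74 and 8.92 in total RNA. Asns, the asparagine synthetase and a known target of Atf4, read 9.36, 9.77 and 10.96, and Atf4 itself 9.98, 10.17 and 10.68. Trib3, which Atf4 also induces, was lowest in the third liver in total RNA, at 6.84, 7.05 and 6.60. On polysomes it was highest there, at 7.52, 7.54 and 8.02. Groups of 3 livers allow no test of 1 liver. Without the total RNA array of the third DMSO liver, Slc1a4 was higher in hepatectomised than in refed liver, by 1.38 (adjusted p = 0.0146). In that fit 8.26% of all clusters were higher, and the Slc38a9 call was lost as given above. Among refed rapamycin livers the second was highest in total RNA for Slc38a2 (11.11, 11.91 and 10.86) and Slc7a1 (7.69, 8.35 and 7.74). It was also highest for Slc1a4 (7.83, 8.76 and 7.95) and Slc43a1 (11.02, 11.73 and 10.47). Slc7a5 was highest in the third, at 9.18, 9.22 and 10.13.

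Polysome RNA was then set against total RNA of the same DMSO livers, which asks how far each mRNA is found on ribosomes relative to its abundance in the tissue. Carrier mRNAs tended to lie below the level of total RNA on polysomes. The median log2 difference over the 28 genes was -0.25 in hepatectomised, -0.24 in refed and -0.29 in fetal livers, against medians of 0.09, 0.10 and 0.04 over all tested clusters, and 22, 23 and 27 of the 28 were below 0. These figures include genes not above background on every array compared, whose gap was not well measured. They were Slc38a5 and Slc38a1 in both adult models, Slc36a2 in refed livers and Slc1a2 in fetal livers. None passed the threshold as higher on polysomes in any model. As lower, 8 passed in hepatectomised livers, where 15.0% of all tested clusters were lower and 28.8% higher, 3 in refed livers, where 5.14% were lower and 19.5% higher, and 4 in fetal livers, where 6.38% were lower and 8.10% higher.

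The balance of all clusters in this comparison moved with the scaling of the arrays, whereas each of the carriers counted above as lower kept its call under the other scaling. The share of calls that were higher on polysomes was 65.8% in hepatectomised, 79.2% in refed and 55.9% in fetal livers as deposited, and 47.5%, 53.8% and 41.2% after cyclic loess scaling, which put the medians of all clusters at -0.02, -0.04 and -0.00. After that scaling 14 carriers were lower in hepatectomised, 4 in refed and 5 in fetal livers, and again none was higher, where 22.0%, 10.2% and 8.66% of all clusters were lower. With each liver kept as a block, which uses the pairing of its 2 arrays, 3 genes were higher and 15 lower in hepatectomised livers (39.1% and 22.0% of all clusters), 1 higher and 10 lower in refed livers (31.7% and 10.8%), and 0 higher and 12 lower in fetal livers (15.9% and 12.1%).

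Slc7a2 (10791902), the arginine and lysine carrier of hepatocytes, had the widest gap of the carriers called in each adult model. In hepatectomised livers it read 11.40, 11.45 and 11.49 on polysomes and 12.16, 12.25 and 12.56 in total RNA, with no overlap and a difference of -0.87 ± 0.12 (adjusted p = 0.000174). In refed livers it read 11.74, 11.76 and 11.38 on polysomes and 12.68, 12.07 and 12.68 in total RNA, again with no overlap and a difference of -0.85 ± 0.18 (adjusted p = 0.00662). In fetal livers the differences within the 4 livers were -0.53, -0.70, -0.34 and -0.24 and Slc7a2 did not pass the threshold (adjusted p = 0.0738). It passed with the liver as a block (adjusted p = 0.0181), with all 40 arrays in the fit (adjusted p = 0.0338) and without the polysome array of the fourth liver (adjusted p = 0.0351).

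Slc38a3 (10920122) passed in all 3 models. In hepatectomised livers it read 13.50, 13.34 and 12.93 on polysomes and 13.82, 13.71 and 13.69 in total RNA (log2 -0.48 ± 0.11, adjusted p = 0.0049). In refed livers it read 13.41, 13.47 and 13.47 on polysomes and 13.83, 13.73 and 13.81 in total RNA (log2 -0.34 ± 0.06, adjusted p = 0.00291), and in fetal livers 12.63, 12.87, 13.01 and 13.06 on polysomes and 13.50, 13.48, 13.51 and 13.51 in total RNA (log2 -0.61 ± 0.10, adjusted p = 0.00116). The 2 fractions overlapped in none of the models. Slc38a4, the other abundant liver carrier of its family, was lower on polysomes in hepatectomised livers (log2 -0.60 ± 0.09, adjusted p = 0.000348) and in refed livers (log2 -0.44 ± 0.10, adjusted p = 0.0111), calls that were lost with all 40 arrays in the fit (adjusted p = 0.198 and 0.353). In fetal livers Slc38a4 passed with the liver as a block alone (log2 -0.80, adjusted p = 0.00296). Slc1a2, not called in refed livers, passed there with the block (adjusted p = 0.00188) and without the total RNA array of the third liver (log2 -1.02, adjusted p = 0.037), where 3.49% of all clusters were lower in the last fit. In hepatectomised livers Slc1a2 was not called either, at a difference of -0.87 like that of Slc7a2. There it passed with the block (adjusted p = 8.46e-07) and with all 40 arrays in the fit (adjusted p = 0.0488).

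Slc38a9 read 9.36, 9.05 and 8.71 on polysomes and 9.69, 9.79 and 9.79 in total RNA of hepatectomised livers, with no overlap (log2 -0.72 ± 0.14, adjusted p = 0.00142). In fetal livers it read 8.31, 8.50, 8.65 and 8.46 on polysomes and 8.92, 9.08, 9.17 and 8.92 in total RNA, again with no overlap (log2 -0.54 ± 0.12, adjusted p = 0.00844). The heavy chain Slc3a2 (10728507) read 11.94, 12.22 and 11.86 on polysomes and 12.40, 12.71 and 12.56 in total RNA of hepatectomised livers (log2 -0.55 ± 0.13, adjusted p = 0.00499). Of its light chain Slc7a5 the differences within livers were 0.15, -0.07 and 0.05 in hepatectomised and 0.08, -0.07 and -0.01 in refed livers, though -0.33, -0.07, -0.04 and -0.24 in fetal livers. The other hepatectomy calls were Slc7a1 at -0.39 ± 0.12 (adjusted p = 0.0164), Slc43a3 at -0.29 ± 0.09 (adjusted p = 0.0265) and Slc43a1 at -0.26 ± 0.09 (adjusted p = 0.0352). All 3 were lost with all 40 arrays in the fit, and when 1 array was left out Slc7a1 was kept in 5, Slc43a3 in 3 and Slc43a1 in 2 of 6 fits.

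In fetal livers the widest gap was that of Slc36a2, at 9.57, 10.23, 9.90 and 10.46 on polysomes and 11.37, 11.26, 11.01 and 10.89 in total RNA. The fractions did not overlap, and the difference was -1.09 ± 0.20 (adjusted p = 0.00276). Slc1a4 differed by -0.78 ± 0.24 (adjusted p = 0.0417), a call kept in 3 of 8 fits that left out 1 array and lost with no filter on dim clusters.

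In each of the 10 DMSO livers 10 carriers were lower on polysomes, as were 8.44% of all tested clusters. They were Slc1a3, Slc1a4, Slc38a3, Slc38a4, Slc38a9, Slc3a2, Slc43a3, Slc7a1, Slc7a2 and Slc7a8. Within a model, 17 carriers were lower in every hepatectomised liver, 15 in every refed and 17 in every fetal liver, against 29.5%, 20.3% and 21.6% of all clusters. Those of hepatectomised livers include Slc38a1, at -0.28, -0.02 and -0.12, which was not above background on every total RNA array. The share of all clusters that were higher in every liver was not counted, so the following is description only. Higher on polysomes in every liver were 3 carriers in hepatectomised, 2 in refed and 0 in fetal livers. Slc36a4 was so in both adult models, at 0.17, 0.23 and 0.29 in hepatectomised and 0.02, 0.14 and 0.48 in refed livers, and Slc38a6 in hepatectomised livers, at 0.02, 0.50 and 0.28. For Slc7a7 the difference within livers was 0.41, 0.48 and 0.46 in hepatectomised, 0.47, 0.25 and 0.71 in refed, and -0.08, 0.25, -0.07 and -0.56 in fetal livers. It passed as higher on polysomes with the liver as a block alone, in hepatectomised (adjusted p = 0.000179) and in refed livers (adjusted p = 0.00965). In hepatectomised livers Slc36a4 and Slc38a6 passed with the block (adjusted p = 0.0275 and 0.0414) and without the polysome array of the first liver (adjusted p = 0.0433 and 0.0195).

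**Figure D3:**
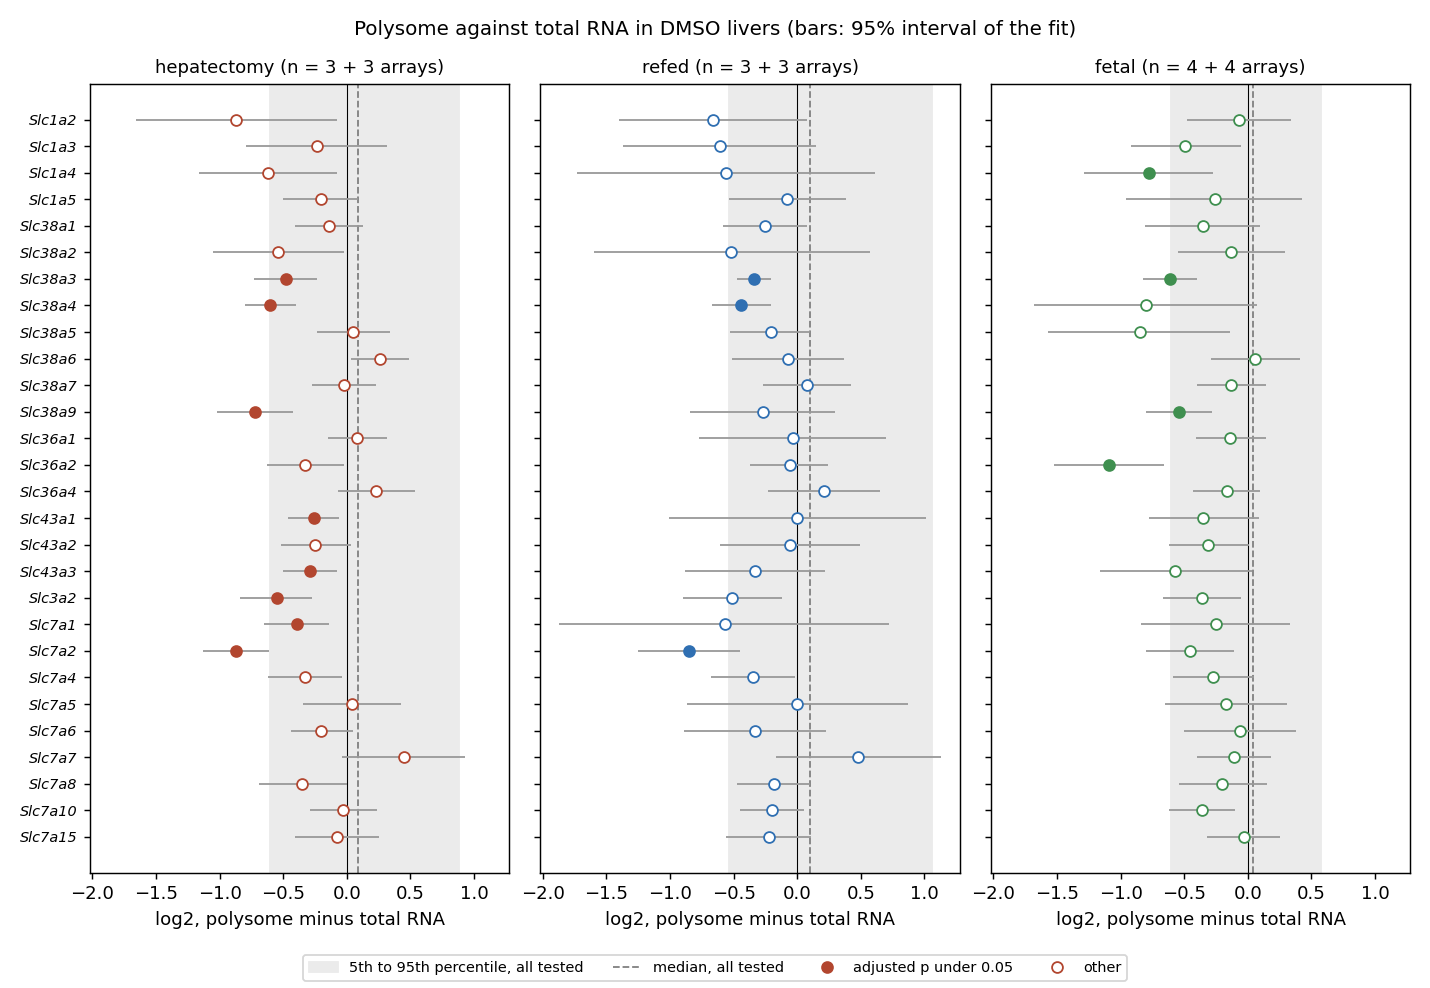
Fitted log2 difference of polysome against total RNA for each of the 28 tested carriers in DMSO livers of each model, with the 95% interval of the fit; filled points have an adjusted p under 0.05, the grey band spans the 5th to 95th percentile of all tested clusters and the dashed line marks their median. Most points lie left of 0, and all filled ones do; Slc7a7 and Slc36a4 lie right of 0 in hepatectomised and refed livers.

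Slc7a6os was higher on polysomes in all models, by 0.58 ± 0.09 in hepatectomised (adjusted p = 0.000492), 0.66 ± 0.17 in refed (adjusted p = 0.0167, kept in 4 of 6 fits that left out 1 array, and 0.055 after cyclic loess scaling) and 0.79 ± 0.17 in fetal livers (adjusted p = 0.00607). Cell-type markers also differed between the fractions, and their part was not tested. Stellate cell markers were lower on polysomes in 6, 5 and 7 of 8 genes in hepatectomised, refed and fetal livers, and hepatocyte markers in 5, 4 and 0 of 9. Of all tested clusters 15.0%, 5.14% and 6.38% were lower.

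Whether the gap between fractions differed between models was tested as an interaction. Of the 28 carriers 1 passed, Slc36a2 in refed against fetal livers, at 1.03 ± 0.26 (adjusted p = 0.0107), where 8.38% of all tested clusters passed in that direction and 1.92% in the other. In refed livers Slc36a2 was not above background in total RNA and was above it in 1 of 3 polysome arrays (6.14, 6.05 and 6.21), so the refed gap was not measured. None of the 28 passed in hepatectomised against refed livers, where 0 clusters passed, or in hepatectomised against fetal livers, where 2.83% did. Slc7a7, for which the adult and fetal differences ran apart, had an interaction of 0.56 ± 0.32 in hepatectomised (adjusted p = 0.375) and 0.59 ± 0.32 in refed against fetal livers (adjusted p = 0.238). With the liver as a block the same values had an adjusted p of 0.0423 and 0.0463, where 10.6% and 15.1% of all tested clusters passed in that direction.

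Rapamycin was compared with DMSO within each model and fraction. Of the carriers, 1 of the 28 was lower on polysomes and 1 in total RNA of hepatectomised livers, and none passed in refed or fetal livers. In hepatectomised livers 4.10% of all tested clusters were lower and 2.26% higher on polysomes, and 3.54% were lower and 1.47% higher in total RNA. Of the calls in total RNA 29.4% were higher as deposited and 44.2% after cyclic loess scaling. The median change of the 28 carriers was -0.07 on polysomes and -0.03 in total RNA of hepatectomised livers, 0.07 and -0.04 in refed livers, and -0.09 and -0.02 in fetal livers.

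Slc7a6 (10807473), the light chain y+LAT2, read 6.89, 6.52 and 6.76 on polysomes with rapamycin and 7.15, 7.25 and 7.02 with DMSO after hepatectomy. The groups did not overlap, and the change of -0.42 ± 0.11 had an adjusted p of 0.0487. That call was lost with no filter and with all 40 arrays in the fit, and none of the 6 fits that left out 1 array kept it (adjusted p up to 0.169). In total RNA Slc7a6 read 7.03, 6.96 and 7.01 with rapamycin and 7.46, 7.15 and 7.40 with DMSO, also without overlap (log2 -0.34, adjusted p = 0.0977). Slc36a2 read 6.71, 6.24 and 6.43 with rapamycin and 6.93, 7.05 and 7.11 with DMSO in total RNA. The change of -0.57 ± 0.14 (adjusted p = 0.041) was kept in 1 of 6 such fits. Those rapamycin arrays lay just above their backgrounds of 6.59, 6.19 and 6.41, so the size of the change was not well measured. The polysome arrays of Slc36a2, at 6.55, 6.28 and 6.66 with rapamycin and 6.64, 6.54 and 6.92 with DMSO, overlapped.

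The leucine carrier Slc7a5 did not pass in either fraction, although its groups overlapped in neither. On polysomes of hepatectomised livers it read 9.91, 9.64 and 10.00 with rapamycin and 10.19, 10.07 and 10.66 with DMSO (log2 -0.46 ± 0.18, adjusted p = 0.132), and in total RNA 9.85, 9.60 and 9.77 with rapamycin and 10.05, 10.14 and 10.60 with DMSO (log2 -0.52 ± 0.18, adjusted p = 0.10). Slc38a3 read 13.63, 13.61 and 13.51 on polysomes with rapamycin and 13.50, 13.34 and 12.93 with DMSO, above every DMSO array (log2 0.32 ± 0.11, adjusted p = 0.102). Without the first DMSO liver that difference was 0.44, with an adjusted p of 0.0192, in a fit where 5.78% of all clusters were higher. The cystine carrier Slc7a11, below the filter, read 4.96, 5.09 and 5.64 on polysomes with rapamycin, none above background, and 6.09, 5.95 and 6.60 with DMSO, 2 of 3 above background. It was lower in the fit with no filter (adjusted p = 0.0409), in which 2.07% of all clusters were, and the size of the change was not measured.

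**Figure D4:**
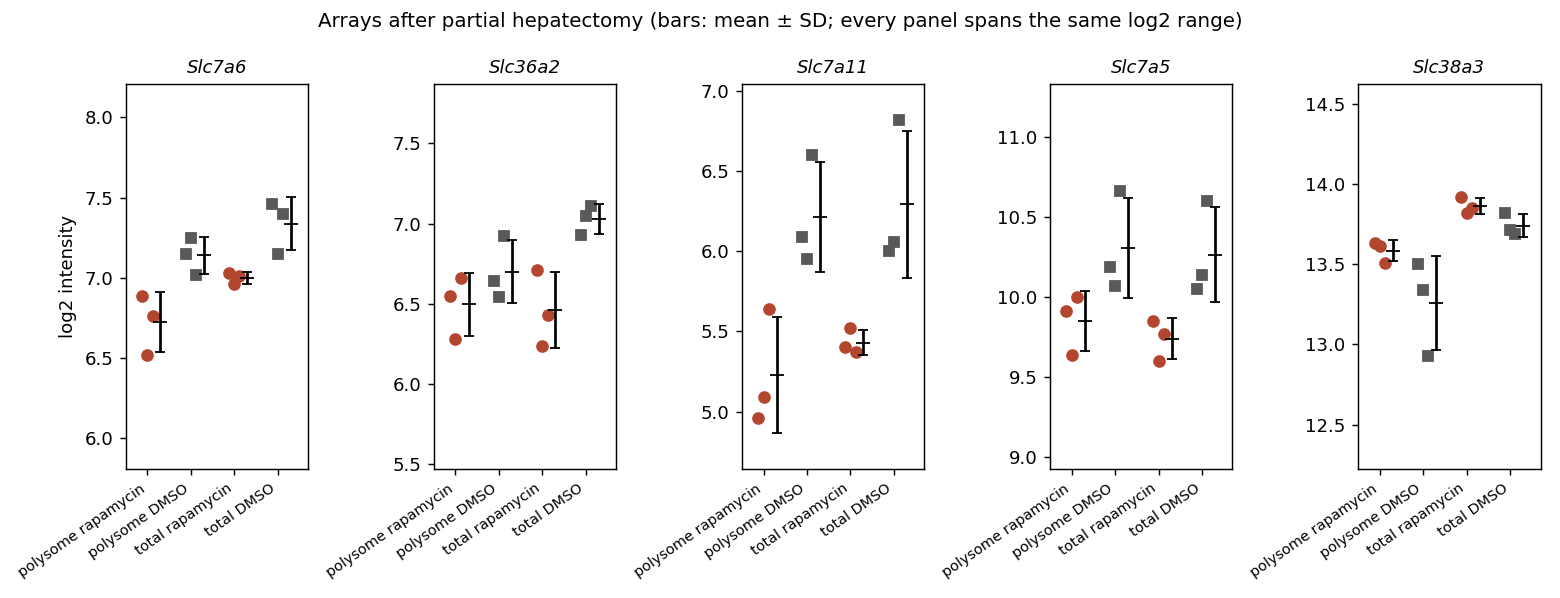
Log2 intensity in each array of hepatectomised livers for carriers named in the rapamycin comparison, on polysomes and in total RNA, with rapamycin left of DMSO, 1 point per liver, bars of the mean ± SD (n = 3) and panels of equal log2 span. The rapamycin points of Slc7a6 and Slc7a5 lie below all DMSO points in both fractions.

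In refed livers no cluster on the array passed as fitted, a count that in total RNA was 349 with all 40 arrays in the fit and ranged from 0 to 1756 when 1 array was left out. As fitted, 1 of the 28 carriers on polysomes and 3 in total RNA had an unadjusted p under 0.05 (limma), as had 526 and 1832 of all clusters. The smallest p on polysomes were those of Slc38a3 at 0.15 ± 0.06, Slc7a2 at 0.39 ± 0.18 and Slc1a2 at 0.63 ± 0.34 (adjusted p = 0.957 to 0.999). In total RNA they were those of Slc7a8, the carrier LAT2, at -0.37 ± 0.13 (adjusted p = 0.237), Slc38a5 at 0.42 (adjusted p = 0.237), and Slc1a3 at -0.78 ± 0.35 (adjusted p = 0.289). Without the second DMSO liver, Slc7a8 at -0.47 (adjusted p = 0.0332) and Slc38a5 at 0.51 (adjusted p = 0.0487) passed, though Slc38a5 was not above background in 5 of the 6 arrays, and 16.2% of all clusters passed in that fit.

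In fetal livers again no cluster passed, and 3 carriers on polysomes and 0 in total RNA had an unadjusted p under 0.05, as had 247 and 199 of all clusters. The smallest p on polysomes were those of Slc38a9 at -0.36 ± 0.12, Slc7a7 at -0.37 ± 0.14 and Slc7a6 at -0.46 ± 0.21, and in total RNA those of Slc7a7 at -0.25 ± 0.14, Slc43a2 at -0.20 ± 0.15 and Slc38a9 at -0.15 ± 0.12. For Slc7a5 the 95% interval of the change ran from -0.84 to -0.07 on polysomes of hepatectomised livers, from -0.87 to 0.87 in refed livers and from -0.69 to 0.26 in fetal livers. The interval in refed livers is the widest of these: Slc7a5 read 9.14, 9.0 and 10.27 with rapamycin and 9.81, 9.67 and 8.91 with DMSO.

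None of the 28 carriers differed between polysome and total RNA in its rapamycin change in any model, where 0 clusters passed. The changes of the 28 in that comparison ran from -0.37 to 0.36 in hepatectomised, from -0.34 to 0.41 in refed and from -0.24 to 0.19 in fetal livers. Nor did any carrier pass in the comparisons of the rapamycin effect between models. There 0.120% of all clusters passed on polysomes and 0.516% in total RNA between hepatectomised and refed livers, and 0 or 0.00921% in the comparisons with fetal livers.

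**Figure D5:**
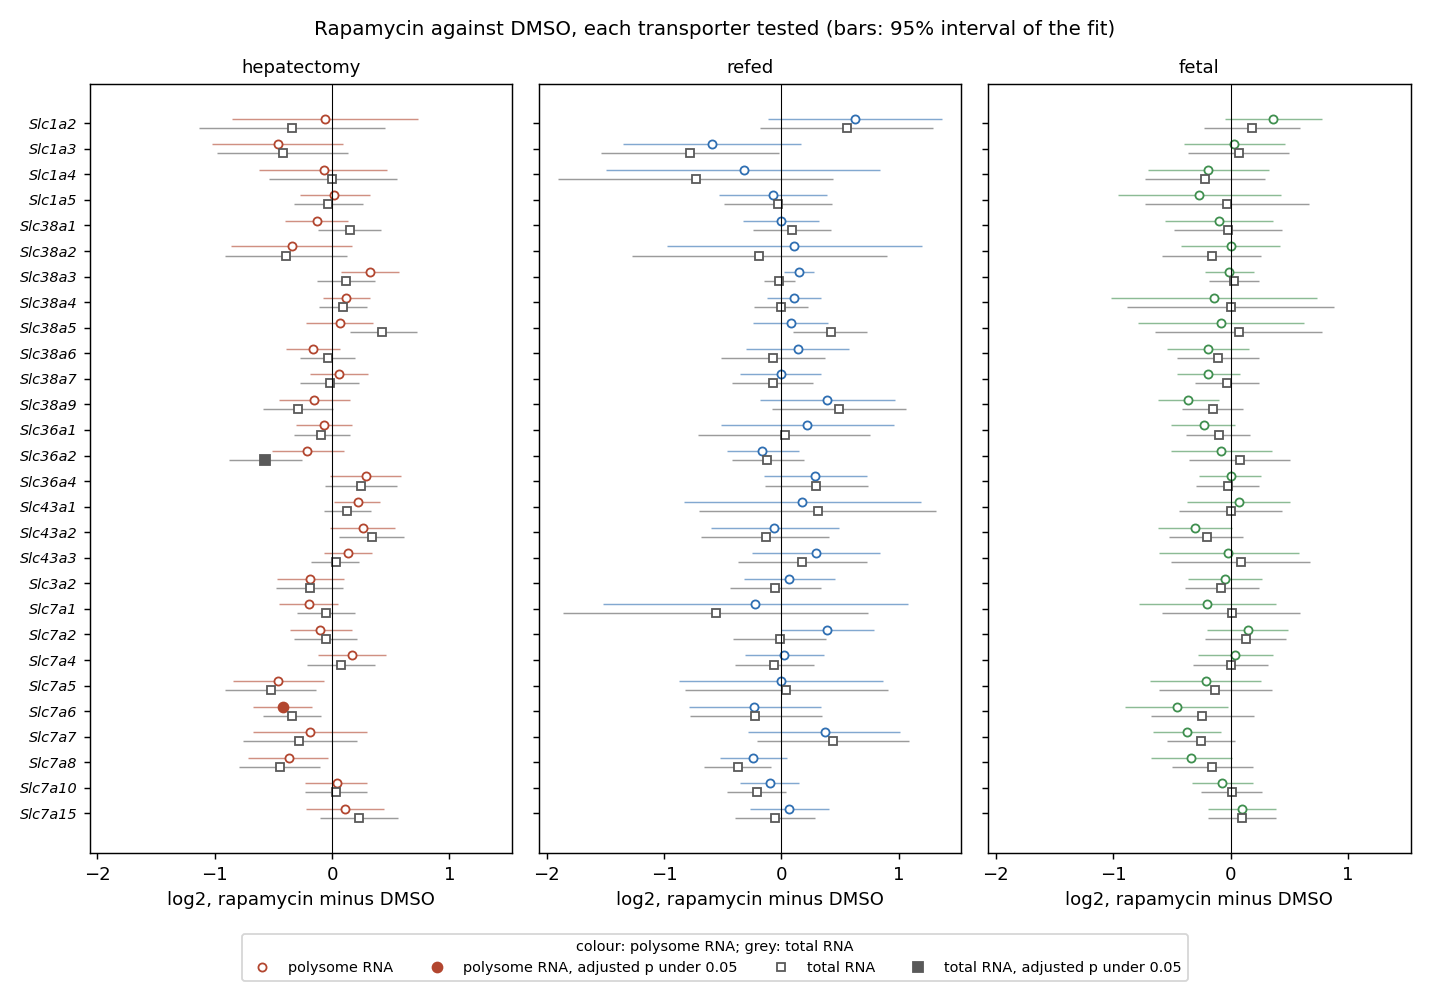
Log2 change with rapamycin against DMSO for each of the 28 tested carriers on polysomes and in total RNA of hepatectomised, refed and fetal livers, with the 95% interval of the fit. Circles are polysome and squares total RNA. Most intervals include 0, and the filled marks are the calls, Slc7a6 on polysomes and Slc36a2 in total RNA of hepatectomised livers.

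Markers of other cells moved with rapamycin after hepatectomy, and their part was not tested. Cell division markers fell in 5 of 6 genes in each fraction, where 4.10% of all tested clusters were lower on polysomes and 3.54% in total RNA. Their summed intensities were 2422 to 5708 with rapamycin and 9111 to 12077 with DMSO on polysomes. Endothelial sums were 8161 to 9219 with rapamycin and 6042 to 7848 with DMSO on polysomes, and 10625 to 12089 and 8246 to 9995 in total RNA. Stellate cell sums were 4886 to 5220 with rapamycin and 3053 to 4666 with DMSO on polysomes, and 9960 to 10511 and 7088 to 8292 in total RNA. Macrophage sums of the treatments overlapped in both fractions. None of the 9 hepatocyte markers passed.

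Around the carriers, genes that Atf4 and the amino acid response are known to control were lower with rapamycin in hepatectomised livers, 8 of 25 on polysomes and 5 of 25 in total RNA, and 0 were higher, against 4.10% and 3.54% of all clusters that were lower. Psat1 and Phgdh, of serine synthesis, changed on polysomes by -1.92 ± 0.19 (adjusted p = 0.00095) and -1.52 ± 0.23 (adjusted p = 0.00888). Trib3, an inhibitor that Atf4 induces, changed by -1.27 ± 0.22 (adjusted p = 0.0146), and Psph by -0.98 ± 0.18 (adjusted p = 0.0186). Atf4 itself at -0.20 (adjusted p = 0.316) and Asns at -0.80 (adjusted p = 0.0583) did not pass. Between models 10 of the 25 response genes were lower and 4 higher in hepatectomised against fetal liver, and 12 lower and 5 higher in refed against fetal liver, where 36.9% and 47.1% of all clusters differed, with Psat1 at -2.02 and -3.71 and Asns at -1.85 and -1.91.

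Genes that sense amino acids upstream of mTOR complex 1 are set here beside the carriers. Of 27 tested, 13 were higher and 3 lower on polysomes of hepatectomised livers, 11 and 0 in refed livers, and 3 and 0 in fetal livers, with medians of 0.34, 0.32 and 0.25. Of all tested clusters 28.8%, 19.5% and 8.10% were higher and 15.0%, 5.14% and 6.38% lower, so the fetal share lay near that of all clusters. Lamtor5, a subunit of the lysosomal scaffold of mTOR complex 1, was higher by 1.07 ± 0.10 in hepatectomised livers (adjusted p = 1.99e-05), and Mtor, the kinase itself, differed by -0.75 (adjusted p = 6.91e-05). The difference between the lists was not tested.

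Of 38 tested enzymes of amino acid breakdown in hepatocytes, 11 were higher and 12 lower in hepatectomised and 16 higher and 5 lower in refed against fetal liver, led by Tdo2, which degrades tryptophan, at 6.81 and 7.38, where 36.9% and 47.1% of all clusters differed. In hepatectomised against refed liver 1 was higher and 13 lower, led by the serine dehydratase Sds at -2.55, where 12.4% and 5.03% of all clusters were higher and lower. Among 16 amino acid carriers of other families, 3 were higher and 6 lower in hepatectomised against fetal liver, where 36.9% of all clusters differed in either direction. In refed against fetal liver 1 was higher and 5 lower, where 47.1% of all clusters differed. Slc15a2, a peptide carrier, differed by -2.37 and -2.53, and the glycine carrier Slc6a9 by -1.96 and -1.42. On polysomes of hepatectomised, refed and fetal livers Slc6a13 lay at -0.67, -0.52 and -0.75 relative to total RNA.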

How the data were processed

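The values are the authors' processed array intensities, deposited on a linear scale with 1 value per transcript cluster and array, and normalised with RMA per the submitters' processing notes. The submitters normalised with RMA settings, a set of arrays and an annotation build not given in the sources used here. In all 28826 rows held values from 3.77 to 28447, which were log2-transformed here with no pseudocount, giving array medians of 7.09 to 7.40. Precision is limited by the number of arrays. The platform annotation paired 15209 rows with 1 symbol. Tests covered the 10860 rows (10203 genes) with a symbol and a mean log2 intensity of at least 6.7, the 30th percentile of named rows.

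Group means were fitted with limma 3.58.1 in R 4.3.3, with empirical Bayes variances and an intensity trend, on the arrays of 1 model for comparisons within it and on all 40 arrays for those between models. In these fits the polysome and the total array of a liver entered as independent arrays. Two-sided p-values were adjusted by Benjamini-Hochberg over the 10860 rows at a threshold of 0.05. Errors are standard errors (SE). The fit was tested on simulated data. Members, lists, motifs and tests were chosen with earlier results of these data known. The named-gene rule took every member past the threshold, up to 8 in each direction, the 3 smallest p where none passed, array values for up to 6 members per comparison, and up to 4 genes per other list. Some arrays were named beyond this rule and chosen after their values were seen. They were those of Slc38a2 and of the carriers in the third refed DMSO, second refed rapamycin and single fetal livers.

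A polysome and a total array with the same model, treatment and number were taken as 1 liver, since the titles give both fractions the same replicate numbers without naming a liver, and their deviations from the group means correlated at 0.46 to 0.82 in refed, 0.51 to 0.72 in hepatectomised and 0.33 to 0.69 in fetal livers. Rapamycin and DMSO livers share only a number, except that fetal livers of equal number correlated in every pair, at 0.42 to 0.75. Alternatives were no filter, cyclic loess scaling, no intensity trend, other sets of arrays in the fit, a replicate block and leaving out each array. No 2 arrays held the same values. Slc7a14, Slc38a8, Slc38a10 and Slc38a11 were not analysed here.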

Additional observations from a re-analysis of the deposited data

Results flagged for a closer look

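The gap between polysome and total RNA of Slc36a2 differed between refed and fetal DMSO livers by 1.03 ± 0.26 on the log2 scale (limma interaction, adjusted p = 0.0107, with 8.38% of all tested clusters called in that direction). Polysome minus total gave -1.09 ± 0.20 in fetal livers. In refed livers Slc36a2 was not above background in total RNA and was above it in 1 of 3 polysome arrays, so the value rests on a gap that was measured in fetal livers alone. The adjusted p was 0.0507 without the first refed total RNA array.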

How the results depend on the processing

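No carrier call reversed under any alternative run. Counts of carriers past the threshold moved by over 1.5 times in the following cases. For rapamycin after hepatectomy, the 1 call on polysomes became 0 with all 40 arrays in the fit and 0 with a replicate block, and ranged from 0 to 1 when single arrays were left out. With no filter the count stayed at 1, but the Slc7a6 call was lost and Slc7a11 was called instead. Among the fits without a single array the call was Slc38a3, not Slc7a6. The 1 call in total RNA became 0 with no filter, with all 40 arrays and with the block, and ranged from 0 to 1. The count of 0 for refed total RNA ranged from 0 to 2, and the counts of 0 for the rapamycin effect in total RNA between hepatectomised and refed and between refed and fetal livers ranged from 0 to 1, where the single call was Slc38a9 without the second refed DMSO liver. For polysome against total RNA, the 8 calls in hepatectomised livers became 14 with cyclic loess scaling, 5 with all 40 arrays and 18 with the liver as a replicate block. With the block the 3 refed calls became 11 and the 4 fetal calls 12. The difference of that gap between hepatectomised and fetal livers had 0 calls and 3 with the block. Between refed and fetal livers the 1 call became 0 with only the compared arrays and 3 with the block, and ranged from 0 to 1 when single arrays were left out. The block changed no other count by over 1.5 times. In fetal rapamycin comparisons, where livers of equal number correlated though no label pairs them, it gave 0 calls. The cause of these moves was not tested. Averaging several rows of a gene was not run, since each gene had 1 row. Groups of 3 and 4 livers limit what can be called, and values near background set only bounds.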
